A study of Saccharomyces cerevisiae with 4 samples.

Results

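The 10 genes described here encode subunits of 3 yeast chromatin complexes: SUM1, RFM1 and HST1 of the Sum1-Rfm1-Hst1 repressor, SIR1, SIR2, SIR3 and SIR4 of the SIR silencing machinery, and SAS2, SAS4 and SAS5 of the SAS acetyltransferase. They are 10 of 6002 nuclear protein-coding genes in the gene table. They were chosen by complex, with the peaks near SUM1, SAS5 and SIR3 already known, so peak positions and folds are given as descriptions with no test. For each gene, every peak sharing at least 1 bp with the gene and 1 kb on both sides was taken.

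The study immunoprecipitated HA-tagged Sir2 (strain LRY1926) and HA-tagged Hst1 (strain LRY0558) from Saccharomyces cerevisiae and sequenced the recovered DNA (ChIP-seq). A mock IP used the same anti-HA antibody on the parental strain LRY1009. All strains were in early log phase at 30 °C in rich glucose medium, and the labels give no further genotype. There was 1 deposited peak list per IP, of 159 peaks for Sir2, 692 for Hst1 and 3 for the mock IP. The design names 2 technical replicates per IP, but 1 list each leaves no replicate check, and the lists give no read counts, so depth is unknown. As a check of the labels, the list labelled Sir2 had a peak at the silent locus genes HMRA1 and HMRA2 (fold 13.7), and the list labelled Hst1 had one near the sporulation kinase gene SMK1 (fold 8.57). None of these 3 genes was within 1 kb of a peak in another list. Fold is the authors' enrichment at the summit over the caller's local background, and it is ranked only within a list.

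Sir2 and Hst1 are related NAD+-dependent histone deacetylases that work in different complexes. Hst1 is tethered through Rfm1 to the DNA-binding protein Sum1 and represses genes of middle sporulation and NAD+ synthesis during vegetative growth. Sir2 works with Sir3 and Sir4, and with Sir1 at the silencers, to silence the cryptic mating loci, and with Sir3 and Sir4 near telomeres. The SAS complex acetylates histone H4 at the lysine that Sir2 deacetylates, so the SAS and SIR complexes act on chromatin in opposite ways. The comparison asks whether the deacetylases lay at the genes of their own complex or of the other complexes.

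Hst1 peaks lay at 2 of the 10 genes, SUM1 and SAS5, and a Sir2 peak lay at none of them. Each of the 2 had 1 Hst1 summit in its promoter, and SUM1 had a further peak beyond its other end. Mock IP peaks lay at 1 gene, SIR3, which had no Sir2 or Hst1 peak. The other 7 genes, RFM1, HST1, SIR1, SIR2, SIR4, SAS2 and SAS4, had no peak within 1 kb in any list. By complex, Hst1 peaks were at 1 of 3 Sum1-Rfm1-Hst1 genes, 0 of 4 SIR genes and 1 of 3 SAS genes.

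Over all 6002 genes, 20.8% had an Hst1 peak within 1 kb, 3.62% had a Sir2 peak, 0.100% had a mock IP peak and 77.2% had no peak in any list. Summits in the 500 bp upstream of the annotated start, taken here as the promoter, were found for Hst1 at 8.41% of all genes and at 2 of the 10, and for Sir2 at 0.467% and at 0 of the 10. The 10 windows were 2747 to 6077 bp long with a median of 3600.5 bp, against a median of 3200 bp for all genes. Because the choice of genes rested on these peaks, nothing is read from the counts beyond their size.

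**Figure D1:**
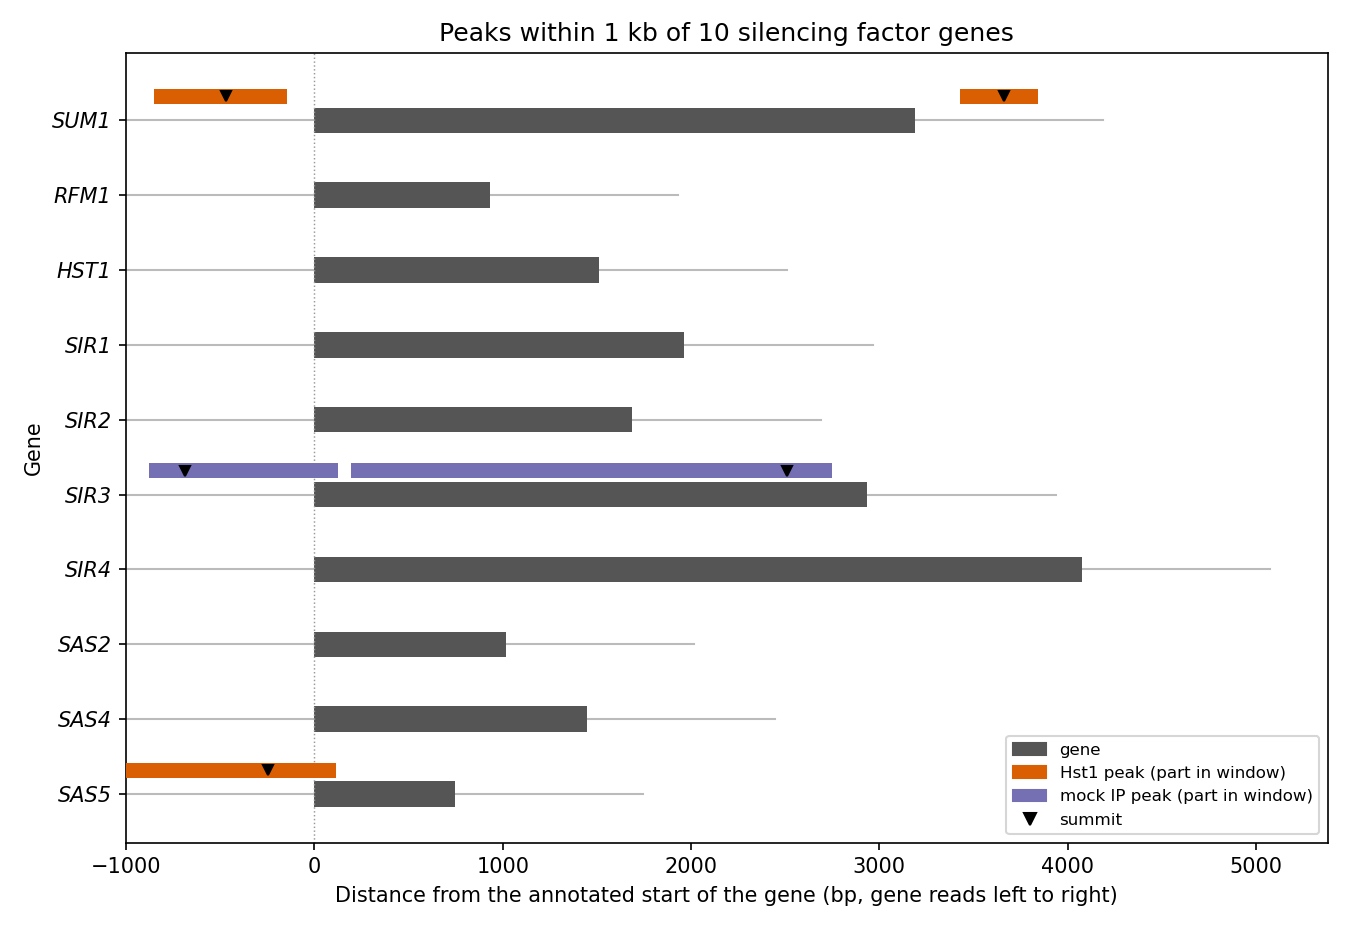
Each row is 1 gene drawn from its annotated start (0 on the horizontal axis, in bp) with 1 kb on both sides; coloured bars are the parts of peaks inside that window and triangles are summits. Hst1 peaks appear at SUM1 (2 peaks) and SAS5 (1 peak), mock IP peaks at SIR3 (2 peaks), and no Sir2 peak appears in any row.

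SUM1 (YDR310C) encodes the DNA-binding subunit that brings Hst1 to its target genes. In sacCer3 it lies on the reverse strand of chromosome IV, from 1081128 to 1084316, and an Hst1 peak lay on each side of it. The peak on the promoter side, chrIV:1084461-1085170, was 710 bp long. Its fold was 5.73, at a −log10 q of 97.8. It ranked 48 of 692 by fold, where the list median was a fold of 2.22 and a length of 400.5 bp. The Sir2 and mock IP lists had no peak there.

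The summit of that peak, at position 1084786, was 470 bp upstream of the start of SUM1, inside no annotated gene. It was nearer to the start of the neighbour TFB1, a gene of a general transcription factor subunit read in the opposite direction, at 279 bp. The peak covered 604 of the 748 bp between the 2 genes (80.7%) and the first 106 bp of TFB1. Its nearer edge was 145 bp upstream of the start of SUM1, counted as the summit distances are. Such sharing was not rare: of 412 Hst1 peaks with a summit in a promoter, 92 (22.3%) were in the promoters of 2 or more genes. The list alone therefore does not say to which of the pair the peak belongs.

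The second Hst1 peak at SUM1, chrIV:1080475-1080885, lay beyond the end of the gene. It was 411 bp long. Its fold of 2.69, at a −log10 q of 22.4, stood at rank 218 of 692. Its summit was 472 bp past the end of SUM1 and 457 bp upstream of GIC2, a gene of a Cdc42 effector in cell polarity, so by the 500 bp rule it is a promoter summit of GIC2 and not of SUM1. The gene body of SUM1 had 0 bp under any peak. Of all genes, 2.82% had 2 or more Hst1 peaks within 1 kb, and SUM1 was the 1 gene of the 10 that did.

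RFM1 (YOR279C, chromosome XV, 843698 to 844630), which encodes the linker between Hst1 and Sum1, had no peak within 1 kb. The nearest Hst1 peak was 17.7 kb away, the farthest of the 10 genes, with a fold of 2.21 and its summit inside YOR268C. The nearest Sir2 peak was 238 kb away. HST1 itself (YOL068C, XV, 200368 to 201879) had its nearest Hst1 peak at 14.5 kb, in the promoter of MAM3 with a fold of 4.97, and its nearest Sir2 peak at 78.1 kb. The gene of the tagged deacetylase and the gene of its linker had no peak close by, while the gene of their DNA-binding partner did. Both peaks at SUM1 were, however, nearer to the start of a neighbour, TFB1 or GIC2, than to that of SUM1.

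SAS5 (YOR213C) encodes a subunit of the SAS complex. It lies on the reverse strand of chromosome XV, from 744535 to 745281, and had the strongest Hst1 peak of the 10 genes. This peak, chrXV:745165-746847, reached a fold of 8.24, at a −log10 q of 181, and ranked 5 of 692 by fold. With 1683 bp it was also among the longest of the list, ranked 14 by length. Neither of the other lists had a peak there.

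The SAS5 summit, at position 745529, was 248 bp upstream of the start of SAS5 and in the promoter of no other gene. It lay in the 311 bp between SAS5 and SPR2, a gene of a putative spore wall protein expressed in sporulation, and 64 bp past the end of SPR2, which is read in the same direction. The peak covered all of that gap, all 711 bp of SPR2, the whole 421 bp upstream of SPR2 as far as AIM41, and 123 bp of AIM41. Within SAS5 it covered 117 bp, or 15.7% of the gene. The summit marks the SAS5 side of the peak, but the sequence upstream of SPR2 was under the same peak, and the list gives only 1 summit for it.

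**Figure D2:**
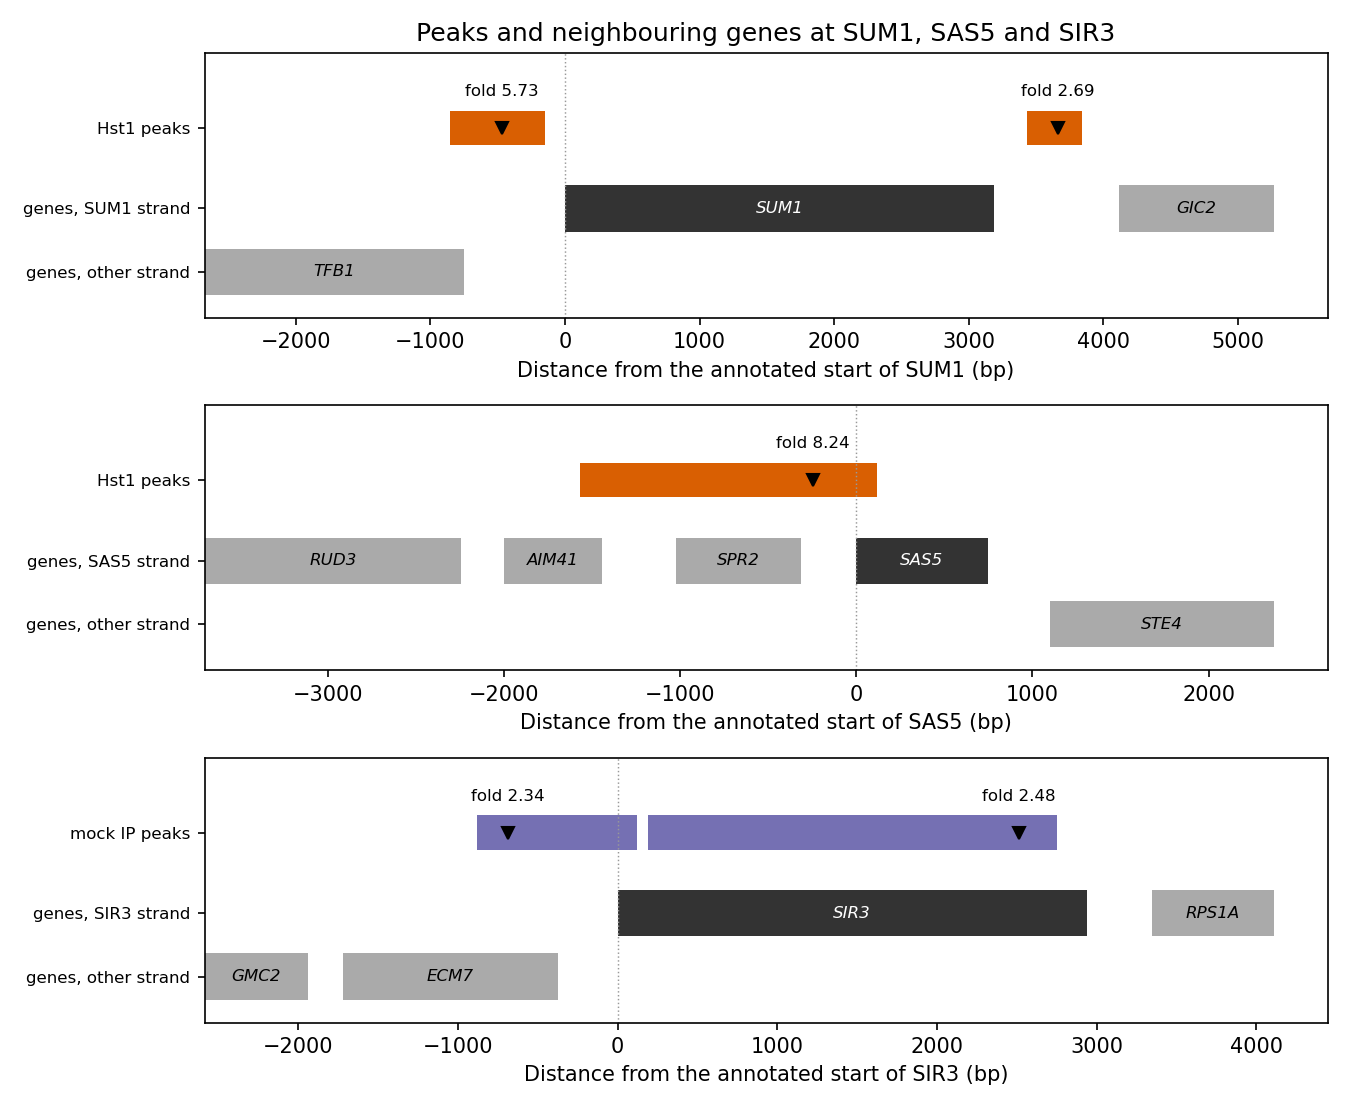
The 3 panels show the peaks around SUM1, SAS5 and SIR3 with neighbouring genes on both strands; the horizontal axis is the distance in bp from the start of the named gene, triangles are summits and numbers are the authors' folds. The SUM1 peak of fold 5.73 sits between 2 gene starts, and the SAS5 peak of fold 8.24 runs over SPR2. The mock IP peak of fold 2.48 runs over SIR3. That of fold 2.34 covers 124 bp of SIR3 and 506 bp of ECM7, with its summit inside ECM7.

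Among the 412 Hst1 peaks in promoters, the SAS5 peak ranked 4 and the SUM1 peak 32. By fold in this 1 list, the promoter peaks closest to SAS5 were that shared by NHP6A, a gene of a high-mobility-group chromatin protein, and SMK1 (8.57, a difference of 0.331), and that of BNA2, an enzyme gene of NAD+ synthesis (8.23, a difference of 0.0134). The neighbours of SUM1 were the shared peak of MDJ2, a mitochondrial chaperone gene, and EGT2, a cell separation gene (5.78, a difference of 0.0457) and that of LDS1, a spore wall gene (5.71, a difference of 0.0251). With no error on a fold, differences of this size cannot be ranked firmly.

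**Figure D3:**
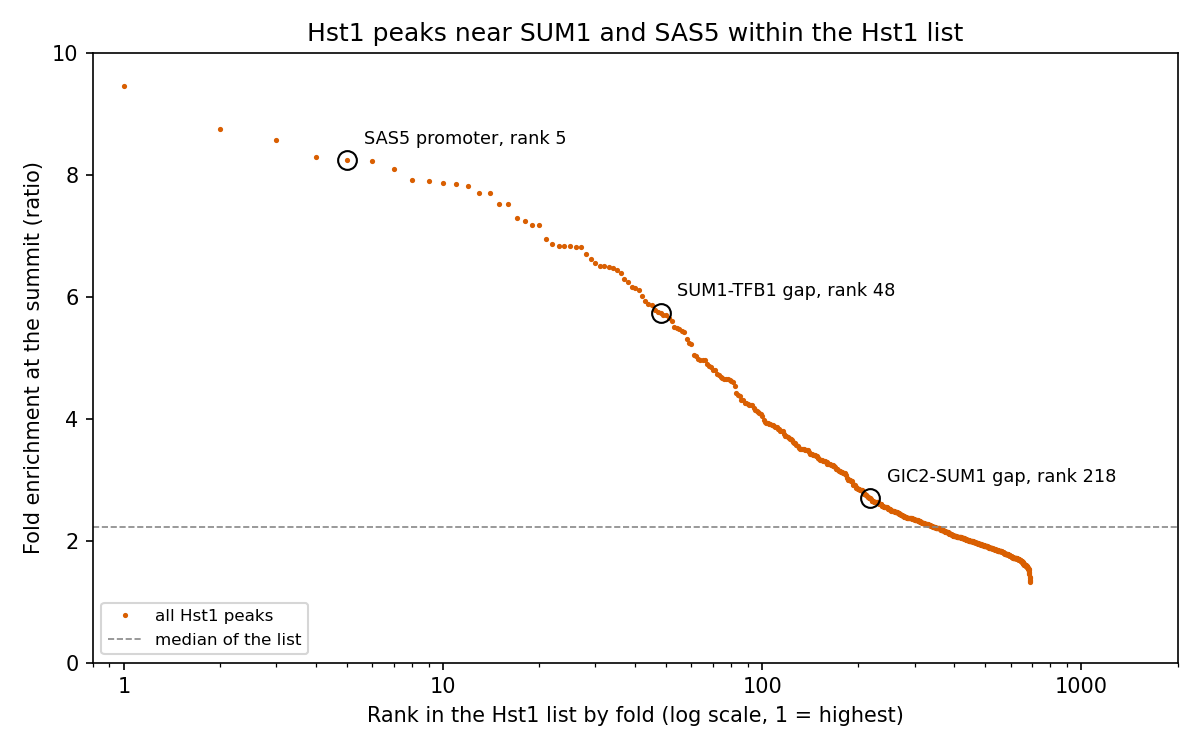
Each dot is 1 of the 692 Hst1 peaks, with its rank by fold on a log horizontal axis and its fold on the vertical axis; circles mark the 3 peaks near SUM1 and SAS5 and the dashed line is the list median of 2.22. The circled peaks have ranks 5, 48 and 218, all above the median.

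The other 2 SAS genes had no peak within 1 kb. SAS2 (YMR127C, XIII, 522329 to 523345) encodes the catalytic subunit. Its nearest Hst1 peak was 4.28 kb away, with a fold of 4.84 and its summit inside STO1, which encodes a subunit of the nuclear cap-binding complex. That was the closest peak left outside the windows of the 8 genes without an Hst1 peak. SAS4 (YDR181C, IV, 825910 to 827355), which encodes another subunit, had its nearest Hst1 peak 17.6 kb away, in the promoter of the translation termination gene SUP35 (fold 4.63). The nearest Sir2 peaks of SAS2, SAS4 and SAS5 were 147 kb, 46.4 kb and 147 kb away. A further Hst1 peak lay 2.31 kb from SAS5, in the promoter of the mitochondrial fusion gene MGM1 (fold 2.49), outside its window.

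At the SIR genes the lists of the tagged proteins were empty. SIR2 (YDL042C, IV, 376757 to 378445) had its nearest Hst1 peak 7.33 kb away in the promoter of BSC1 (fold 2.15) and its nearest Sir2 peak 139 kb away. SIR4 (YDR227W, IV, 917571 to 921647), which encodes the scaffold of the complex, had its nearest Hst1 peak 12.3 kb away, in the promoter of the sporulation septin gene SPR28 (fold 3.41). For SIR1 (YKR101W, XI, 640540 to 642504), whose product acts at the silencers of the mating loci, the distances were 9.84 kb to an Hst1 peak (fold 2.05) and 16.0 kb to a Sir2 peak (fold 5.53) with its summit inside VBA5. That Sir2 fold was the second highest among the nearest Sir2 peaks of the 10 genes, after the 7.50 of the distant peak on the chromosome of RFM1.

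SIR3 (YLR442C, XII, 1019315 to 1022251) encodes the subunit that binds deacetylated nucleosomes, and 2 of the 3 mock IP peaks lay on it. The first, chrXII:1019503-1022059, was 2557 bp long (fold 2.48, −log10 q 14.7), and its summit was inside SIR3, 2512 bp from the start. The second, chrXII:1022128-1023130, was 1003 bp long (fold 2.34, −log10 q 12.0), and its summit was inside the neighbour ECM7, 686 bp upstream of SIR3. They were 68 bp apart and together covered 2681 bp of SIR3 (91.3%), the whole 373 bp between SIR3 and ECM7, and the first 506 bp of ECM7. The last 188 bp of SIR3 and all of RPS1A, a ribosomal protein gene next on that side, were outside them.

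Both mock IP summits at SIR3 lay inside genes, and the 3 Hst1 summits at SUM1 and SAS5 lay between genes. Other Hst1 summits lay inside genes, such as those in STO1 and YOR268C. No share over the whole Hst1 list is given here, so placement is not read as a difference between the lists. The remaining mock IP peak, of fold 5.32, covered 100% of the tryptophan synthesis gene TRP1 on chromosome IV. It lay 83.1 kb from SIR2, the nearest of the described genes on that chromosome. At SIR3 the nearest Hst1 peak was 6.89 kb away (fold 2.21, in the promoters of DIF1 and CAR2), and the nearest Sir2 peak was 38.9 kb away. Of all Sir2 and Hst1 peaks, 0 overlapped a mock IP peak. No source used here names the control library of a call, so an absence of Sir2 and Hst1 signal at SIR3 and its subtraction as background cannot be told apart.

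Across the 10 genes, the distance to the nearest Hst1 peak ran from 0 bp at SAS5 and 145 bp at SUM1 to 17.7 kb at RFM1. Its median was 8.59 kb, against 5.74 kb for all 6002 genes, and 7 of the 10 were farther than that all-gene median. The 8 genes with no Hst1 peak within 1 kb were 4.28 to 17.7 kb from one. For Sir2 the distance ran from 13.0 kb at SUM1 to 238 kb at RFM1, with a median of 62.2 kb against 64.6 kb for all genes. Except at SIR1 and RFM1, these nearest Sir2 peaks were weak, with folds from 1.82 to 2.21 against a list median of 2.48. They ranked from 107 to 157 of 159 by fold. The closest, at SUM1, had a fold of 1.92 (rank 148), with its summit inside YDR316W-B. SAS5, the other gene with an Hst1 peak, was 147 kb from a Sir2 peak.

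**Figure D4:**
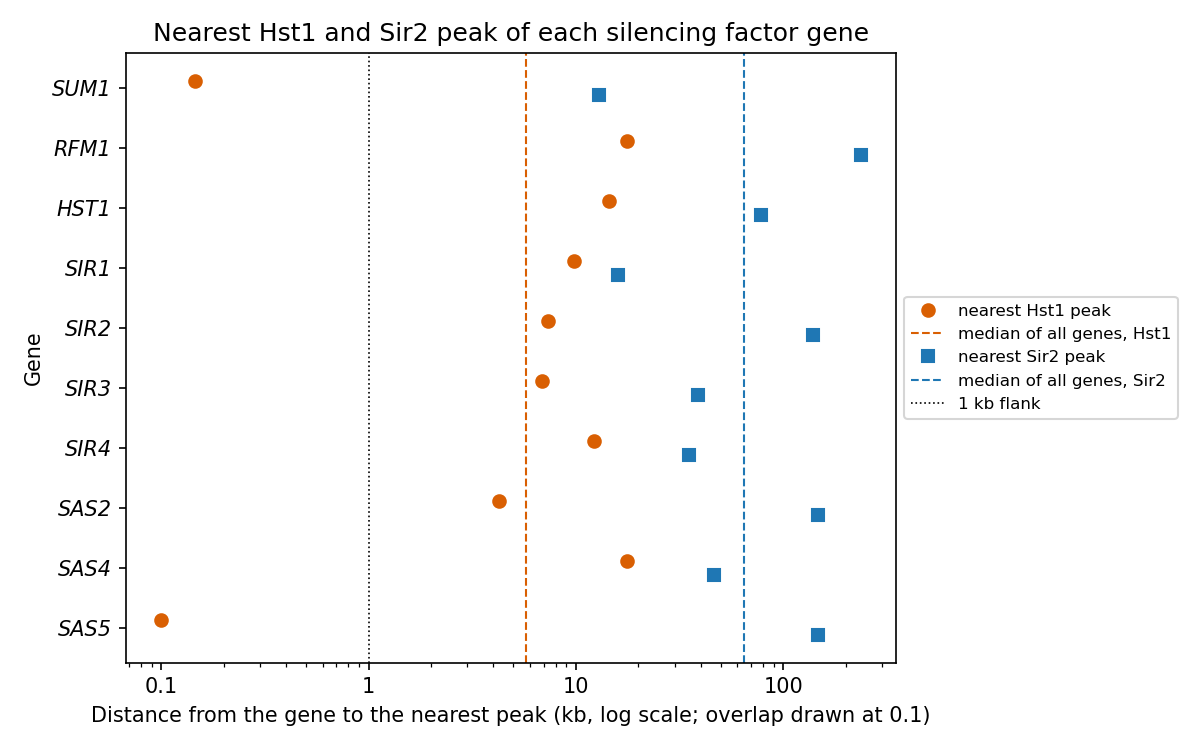
For each gene, the circle gives the distance to the nearest Hst1 peak and the square that to the nearest Sir2 peak, in kb on a log axis, with overlap drawn at 0.1; dashed lines are the medians over all genes and the dotted line is the 1 kb flank. SAS5 and SUM1 are left of the dotted line for Hst1, and every Sir2 square is at 13.0 kb or more.

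Other genes of silencing and deacetylation, taken from a list of 34 that were all matched, mostly had no peak either. Hst1 peaks lay within 1 kb of 5 of them (14.7%, against 20.8% of all genes) and a Sir2 peak within 1 kb of 1 (2.94%, against 3.62%). By class, Hst1 peaks lay at 3 of 4 chromatin assembly genes, whose products work with SAS, 1 of 7 boundary factor genes and 1 of 2 RENT complex genes. They lay at 0 of 8 genes of other deacetylases and their partners, 0 of 6 of telomere and anchoring factors, 0 of 3 of other sirtuins, 0 of 2 of other MYST acetyltransferases and 0 of 2 of an N-terminal acetyltransferase. These classes are small, and no class was tested. The chromatin assembly genes with a peak were RLF2 (fold 2.29, summit 372 bp upstream) and CAC2 (fold 2.14, summit 694 bp past the end of the gene) of chromatin assembly factor I, and the histone chaperone gene ASF1 (fold 1.61, summit 812 bp upstream). The boundary factor gene HTZ1, which encodes a histone variant, had 1 of fold 1.71, with its summit 680 bp upstream.

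CDC14, which encodes a phosphatase of the nucleolar RENT complex that holds Sir2, was the 1 gene on that list near peaks of both IPs. The Sir2 peak had a fold of 2.26 with its summit 311 bp upstream, and the Hst1 peak had a fold of 1.89 with its summit 453 bp upstream. They shared 102 bp, and the tRNA gene SUP6 was 240 bp from the Sir2 summit and 98 bp from the Hst1 summit. All 5 Hst1 folds on that list, from 1.61 to 2.29, were below those of the 3 Hst1 peaks at SUM1 and SAS5. The peaks near SUM1 and SAS5 were known when the genes were chosen, so nothing is read from this difference. The weakest of those 3, of fold 2.69, was a promoter peak of GIC2 by the 500 bp rule. The genes of the other sirtuins HST2, HST3 and HST4, of the RENT subunit NET1, of the acetyltransferases SAS3 and ESA1, and of the deacetylase subunits RPD3, SIN3 and HDA1 had no peak within 1 kb in the Sir2 and Hst1 lists.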

How the data were processed

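Peak lists came from a Sir2-HA IP, an Hst1-HA IP and a mock IP, 1 each; the genomic input was not analysed here. Reads were processed with BWA and MACS2 on sacCer3, per the submitters' processing notes. Versions, cutoffs, control libraries and any pooling of replicates were not given in the sources used here. As deposited, the ratio is the fold enrichment at the summit, the authors' deposited −log10 p and −log10 q are the caller's own, and the deposited score equals the −log10 q times 10 without its decimals in every peak. Coordinates are 1-based. Gene positions came from the RefSeq table of R64, the assembly behind sacCer3, with strand read from the systematic name. A peak belonged to a gene where it shared 1 bp with the gene and 1 kb on both sides, and a promoter was the 500 bp upstream. The genes and lists were chosen with earlier results of these data known. Named genes were all 10, the genes beside their peaks, up to 6 other silencing genes per list by fold and the promoter peaks next in fold; genes nearest to outside peaks and listed genes without a peak were added afterwards. No test was made. The interval rules were tested on simulated data. Motif and protein comparisons were planned, but sequences were not used here. Python 3.11.15, pandas 2.3.3 and matplotlib 3.10.9 were used.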

Additional observations from a re-analysis of the deposited data

How the results depend on the processing

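The counts of the 10 genes near Hst1 (2), Sir2 (0) and mock IP (1) peaks, and with promoter summits, kept the same value with flanks of 500 bp or 2 kb, with summits in place of any overlap, in the strongest 50% of each list and with a minimum −log10 q of 10, as far as each was tried for that count. Narrower windows and filters that only remove peaks could not change the Sir2 count of 0. The promoter peaks at SUM1 and SAS5 ranked 48 and 5 of 692, at −log10 q of 97.8 and 181. The filters on peak strength therefore had to keep them. Of 48 alternatives computed, 42 stayed within 1.5 times, but that number includes alternatives that could not move. One such was leaving out peaks that overlap a mock IP peak, because 0 did. In an alternative added after seeing the data, each peak was given only to the gene with the nearest start: the Hst1 count then fell to 1, SAS5, because both peaks at SUM1 went to TFB1 and GIC2. In the strongest 50%, which holds fewer peaks, the share of all genes near an Hst1 peak was 12.0% and near a Sir2 peak 2.37%. Of the 34 other silencing genes, those near an Hst1 peak were 3 with 500 bp flanks, 2 with a minimum −log10 q of 10, and 1 in the strongest 50%. The shares of all genes near an Hst1 peak at those settings were 17.2%, 14.0% and 12.0%. Motif windows were not run. No paired analysis was possible because each IP has 1 list. Depth is unknown, so a gene without a peak is not shown to lack the protein.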

Other observations

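In a wider window chosen after the data were seen, 10 kb on both sides, SIR2 and SAS5 each had 3 Hst1 peaks, SUM1 had 2, SIR1, SIR3 and SAS2 had 1 each, and RFM1, HST1, SIR4 and SAS4 had 0, where the median of all genes was 1. The Sir2 list had 0 peaks within 10 kb of any of the 10 genes. The share of all genes with a Sir2 peak within 10 kb was not computed. With 2 kb on both sides that share was 4.57%, and the median distance of all genes to a Sir2 peak was 64.6 kb. Nothing is therefore read from the count of 0.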
